A study of Mus musculus with 8 samples.

Results

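The nuclear-encoded genes of the mitochondrial respiratory chain and ATP synthase were taken from the count table by symbol, as all rows named Ndufa, Ndufb, Ndufc, Ndufs or Ndufv with a number, Uqcr, Cox4 to Cox8, Atp5, Sdha to Sdhd, or Cyc1, with Ndufa4l2 and Cox4i2 left out. This gave 83 of the 23827 rows of the table. The rule reads symbols alone, but it was set with earlier results of these data known. Of these, 35 encode subunits of complex I, 4 of complex II, 9 of complex III, 18 of complex IV and 15 of complex V, and 2 (Atp5s and Atp5sl) carry an ATP synthase symbol but encode no subunit. Enough counts for a test were present for 77 of the 83 genes, among 14592 tested genes in all. Cox6a2, Cox7b2, Cox8b, Cox8c, Ndufs5 and Atp5g2 were not tested.

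Complexes I and II pass electrons from NADH and succinate to ubiquinone, complex III hands them to cytochrome c, complex IV passes them to oxygen, and complex V uses the resulting proton gradient to make ATP. Apart from complex II, each complex joins subunits from the mitochondrial genome with subunits from nuclear genes, and several nuclear subunits have paralogues used in muscle or testis. Sympathetic neurons depend on this system for firing and for transport along axons, and kinesin motors of the family to which KIF1B belongs carry cargo outward along axons.

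RNA was measured by sequencing polyadenylated transcripts of the superior cervical ganglia, a pair of sympathetic ganglia in the neck, of C57Bl6/n mice on postnatal day 1. The 4 cKO animals (KIF1Bb fl/fl :DBHcre +/-) were homozygous for a floxed Kif1b beta allele and carried Cre driven by the Dbh promoter, active in noradrenergic cells, where Dbh makes noradrenaline from dopamine. The 4 WT animals (KIF1Bb fl/fl :DBHcre -/-) carried the same floxed allele without Cre. Each library came from the ganglion pair of 1 animal, and it held neurons together with glia, vessels and connective tissue, cells that do not normally express Dbh.

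Total counts lay between 16214912 and 18114418 in cKO libraries and between 16265885 and 17352807 in WT libraries. Kif1b (chromosome 4, 149176319 to 149307693, minus strand, GRCm38) averaged 259.7 ± 52.7 CPM (read counts scaled to library size with TMM factors) in cKO ganglia and 1224 ± 222 CPM in WT ganglia (SD, n = 4 each). Its log2 fold change was -2.24 (SE 0.18; adjusted p = 3.43e-04, edgeR's quasi-likelihood test), and every cKO library lay below every WT library. The table held 0 rows of mitochondrially encoded genes, so those subunits were not analysed here.

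None of the 77 tested respiratory chain genes differed between cKO and WT ganglia at an adjusted p below 0.05 in edgeR's quasi-likelihood test, and 0 had an unadjusted p below 0.05. Over all tested genes 2457 (16.8%) had an unadjusted p below 0.05, and 397 (2.72%) passed at the adjusted p, of which 234 (1.60%) were higher and 163 (1.12%) lower in cKO ganglia. Scaled by library size alone, 343 were higher and 145 lower. Leaving out 1 library moved the higher calls to between 33 and 318 and the lower calls to between 40 and 196. The higher and lower calls were 75 and 72 without cKO library 2, 79 and 58 without cKO library 3, 153 and 176 without cKO library 4, 39 and 40 without WT library 2, 138 and 111 without WT library 3, and 33 and 41 without WT library 4. The groups overlapped in every one of the 77 genes, while they did not overlap in 1607 of all tested genes (11.0%). The 77 genes moved together between libraries, so they are not 77 separate tests of genotype. They also spread more inside groups than all tested genes, which makes a small p or separate groups less likely for them. Their ratio of highest to lowest library had a median of 1.67 against 1.42 in cKO and 1.58 against 1.37 in WT ganglia. The alternatives to the fit, DESeq2 and limma voom among them, also called 0 of these genes.

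The estimates were small as well as uncalled. The median log2 fold change of the 77 genes was -0.03, against -0.00 over all tested genes, with 24 estimates above 0 and 53 below. They ran from -0.25 for Atp5g1, a gene for the ring subunit of ATP synthase, to 0.62 for Cox7a1, the heart and muscle form of a complex IV subunit. The smallest adjusted p of any member was 0.380, for Cox6b2. The 95% interval of the fold change lay within 2-fold in either direction for 76 of the 77 genes, with Cox7a1 the exception, and within 1.5-fold for 63. A difference inside these intervals was not detectable with 4 animals in each group. Because each library came from whole ganglia, fewer cells of a type and less RNA per cell cannot be told apart in any of these values.

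**Figure D1:**
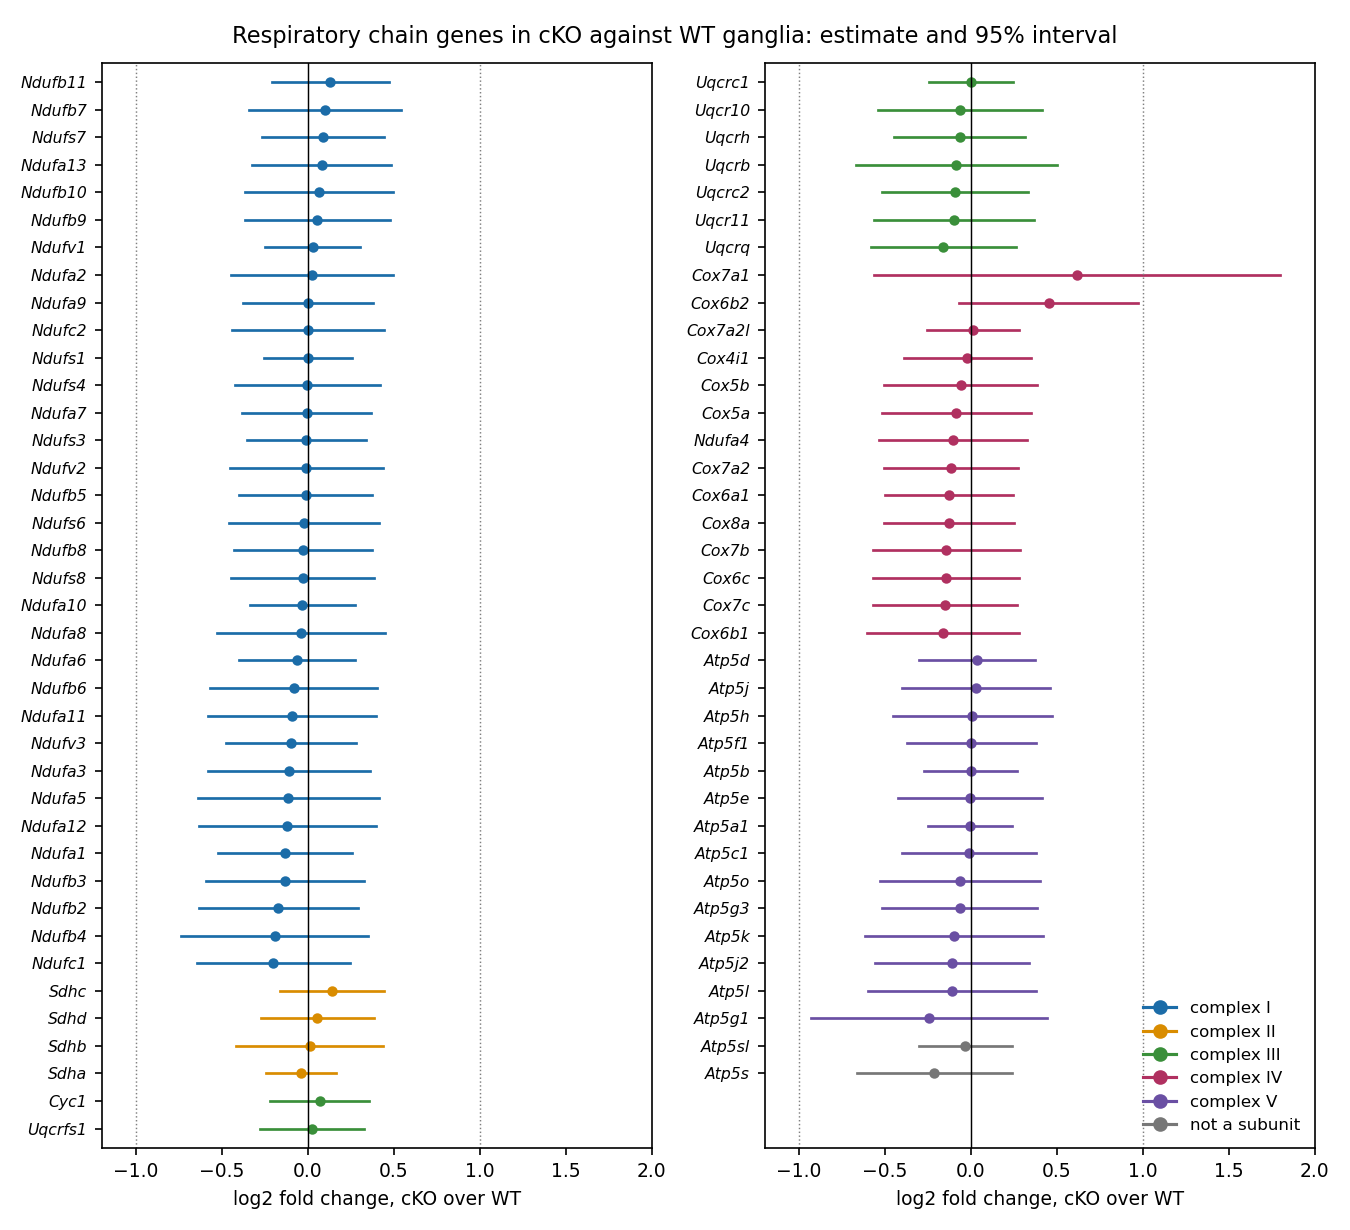
Log2 fold change, cKO over WT, of 76 of the 77 tested respiratory chain genes by complex, both genes that encode no subunit included and 1 gene not shown, with points for the estimate of edgeR's quasi-likelihood fit and bars for the 95% interval; dotted lines mark a 2-fold change. Every interval shown crosses 0, and of those shown the interval of Cox7a1 alone leaves the band between the dotted lines.

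Complex I oxidises NADH, and its 34 tested genes had a median log2 fold change of -0.02 with 12 estimates above 0 and 22 below. The 7 core genes, which carry the flavin and the iron-sulphur clusters or line the quinone site, had a median of 0.00, and the 27 tested accessory genes a median of -0.03. Ndufs1, the iron-sulphur subunit of the NADH-oxidising arm, had 126, 168, 142 and 157 CPM in cKO libraries 1 to 4, against 129, 160.1, 147 and 156 CPM in WT libraries 1 to 4. In both groups library 1 was lowest, and the groups overlapped throughout. Ndufs1 averaged 148 ± 18.3 CPM in cKO and 148 ± 13.6 CPM in WT ganglia (SD, n = 4 each), with a 95% interval of the log2 fold change from -0.26 to 0.26.

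Among complex I genes with estimates above 0, the smallest unadjusted p belonged to Ndufb11, a membrane-arm accessory subunit, at 0.13 (SE 0.15), and to Ndufs7, an iron-sulphur subunit of the quinone module, at 0.09 (SE 0.16). Below 0 they belonged to the accessory subunits Ndufc1 at -0.20 (SE 0.20) and Ndufb2 at -0.17 (SE 0.21). Ndufc1 had 22.4, 34.3, 24.0 and 38.8 CPM in cKO libraries 1 to 4, against 27.3, 30.9, 43.1 and 36.1 CPM in WT libraries 1 to 4. The spread inside each group was wider than the difference between them. Per kilobase of transcript the highest tested complex I gene in WT was Ndufb8, at 206 ± 44.2 CPM per kb in cKO and 210.0 ± 44.0 CPM per kb in WT ganglia (SD, n = 4 each). The lowest was Ndufb4, at 5.28 ± 1.70 CPM per kb in cKO and 6.04 ± 1.18 CPM per kb in WT ganglia (SD, n = 4 each).

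Complex II, succinate dehydrogenase, is the only member of the chain with no mitochondrially encoded subunit, and its 4 genes gave a median log2 fold change of 0.03, with 3 estimates above 0 and 1 below. Sdha, the flavoprotein that oxidises succinate, had 274, 307, 279 and 304 CPM in cKO libraries 1 to 4, against 271, 314, 311 and 303 CPM in WT libraries 1 to 4. Its values gave the narrowest 95% interval of the 77 genes, from -0.24 to 0.16 on the log2 scale. Sdhb, the iron-sulphur subunit, was the highest of the 4 per kilobase, at 192 ± 48.8 CPM per kb in cKO and 191 ± 35.5 CPM per kb in WT ganglia (SD, n = 4 each). For the membrane anchors the estimates were 0.14 (SE 0.14) for Sdhc and 0.06 (SE 0.15) for Sdhd.

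In complex III, which oxidises ubiquinol, 2 estimates lay above 0 and 7 below, with a median of -0.07. The 2 above 0 were the nuclear subunits that carry its redox centres, Cyc1 (cytochrome c1) at 0.07 (SE 0.13) and Uqcrfs1 (the Rieske iron-sulphur protein) at 0.02 (SE 0.14). Uqcrq, a small accessory subunit, had the smallest p among those below 0, with 58.5, 83.3, 62.6 and 85.4 CPM in cKO libraries 1 to 4, against 70.9, 59.9, 107 and 86.2 CPM in WT libraries 1 to 4. Its estimate was -0.16 (SE 0.19) and the groups overlapped. Uqcrh was the highest of the complex per kilobase, at 227 ± 44.0 CPM per kb in cKO and 238 ± 48.5 CPM per kb in WT ganglia (SD, n = 4 each). Uqcrb, a small accessory subunit, was the lowest in WT ganglia, at 49.0 ± 16.02 CPM per kb in cKO and 52.0 ± 15.1 CPM per kb in WT ganglia (SD, n = 4 each), while Uqcrq was the lowest in cKO ganglia, at 47.6 ± 9.11 CPM per kb in cKO and 53.3 ± 13.5 CPM per kb in WT ganglia. The order of these neighbours lay within their spread.

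Uqcrc2, a core-protein subunit of complex III (chromosome 7, 120635176 to 120659524, plus strand, GRCm38), departed from the rest in 1 library. It had 189, 269, 229 and 256 CPM in cKO libraries 1 to 4, against 179, 351, 235 and 240.4 CPM in WT libraries 1 to 4. WT library 2 had 1.31 times the level of the next highest library of the 8, and 30 of all tested genes (0.206%) had so large a gap in that library. The neighbouring genes Vwa3a and E130201H02Rik had 1.19 and 3.32 CPM in WT library 2, inside the range of the other WT libraries in both cases. Pdzd9, which overlaps Uqcrc2 on the other strand and was too low to be tested, had 2 to 8 counts in cKO libraries, against 7 counts in WT library 2 and 3 counts in each other WT library. The log2 fold change of Uqcrc2 was -0.09 (SE 0.19), and it was 0.11 without WT library 2. What set this library apart at Uqcrc2 was not tested.

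Complex IV, cytochrome c oxidase, had the lowest median of the 5 complexes at -0.11, with 3 estimates above 0 and 11 below. Cox4i1, the widely expressed form of subunit 4, was its highest gene per kilobase, at 583 ± 105 CPM per kb in cKO and 591 ± 123 CPM per kb in WT ganglia (SD, n = 4 each). Its log2 fold change was -0.02 (SE 0.17). The widely expressed forms of subunits 6a, 6b, 7a, 7b and 8 all had estimates below 0, namely Cox6a1 at -0.13 (SE 0.17), Cox6b1 at -0.16 (SE 0.20), Cox7a2 at -0.11 (SE 0.18), Cox7b at -0.14 (SE 0.19) and Cox8a at -0.13 (SE 0.17). Each of these estimates was smaller than its standard error.

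Cox6b1, the highest of these forms per kilobase in WT ganglia after Cox6a1, had 153, 239, 183 and 267 CPM in cKO libraries 1 to 4, against 181, 209.9, 304 and 248 CPM in WT libraries 1 to 4. WT library 3 was highest of the 8 and cKO library 1 lowest, and the other libraries were interleaved. Ndufa4, named after complex I and later assigned to complex IV, had a log2 fold change of -0.11 (SE 0.19). Cox7a2l, which encodes a protein related to subunit 7a, had a log2 fold change of 0.01 (SE 0.12). The complex IV median was 0.01 without WT library 3 and ran down to -0.21 without cKO library 4, so its place relative to 0 rests on single libraries.

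The paralogues used in other tissues were all scarce in these ganglia. Cox6b2, known as the testis form of subunit 6b (chromosome 7, 4751792 to 4753094, minus strand, GRCm38), had 3.77, 4.24, 2.27 and 4.42 CPM in cKO libraries 1 to 4, against 3.25, 2.32, 2.81 and 2.37 CPM in WT libraries 1 to 4. Of the cKO libraries, 3 lay above all WT libraries and cKO library 3 lay below them. The log2 fold change was 0.45 (SE 0.23, adjusted p = 0.380 in edgeR's quasi-likelihood test), and Cox6b2 counts made up 1.23% to 2.41% of the counts of both 6b genes in cKO and 0.915% to 1.77% in WT libraries. In the same test its adjusted p was 0.167 without cKO library 3 and 0.288 without WT library 1. It was above 0.380 without any other single library, at 0.640 without WT library 4. The testis forms Cox7b2 and Cox8c had at most 1 count in any cKO library, against at most 2 counts for Cox7b2 and 0 counts for Cox8c in any WT library, where 0 allows up to 3.

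The heart and muscle forms stood out in cKO library 1. Cox8b had 80, 8, 8 and 8 counts in cKO libraries 1 to 4, against 12, 7, 10 and 9 counts in WT libraries 1 to 4. Cox6a2 had 25, 1, 0 and 3 counts in cKO libraries 1 to 4, against 13, 0, 4 and 1 counts in WT libraries 1 to 4. Cox7a1 (chromosome 7, 30184144 to 30186078, plus strand, GRCm38) had 55, 11, 10 and 17 counts in cKO libraries 1 to 4, against 18, 10, 18 and 11 counts in WT libraries 1 to 4. In all 3 genes cKO library 1 was the highest of the 8, and the other cKO libraries lay among the WT libraries or below them. Of the WT libraries, WT library 1 was the highest for Cox8b and Cox6a2 and level with WT library 3 in counts for Cox7a1.

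Markers of skeletal muscle moved with these counts. Of the 15 listed muscle genes 13 were tested, none is a respiratory chain gene, and 0 were at 0 in every library. They summed to 258 CPM in cKO library 1 and to between 45.9 and 59.3 CPM in the other cKO libraries. In WT library 1 they summed to 101 CPM, against 46.1 to 67.2 CPM in the other WT libraries. Cox8b was 4.43% of the counts of both subunit 8 genes in cKO library 1, at most 0.428% in the other cKO libraries and 0.339% to 0.600% in WT libraries. The log2 fold change of Cox7a1 was 0.62 (SE 0.53) with all libraries and -0.28 without cKO library 1, so the largest estimate among the members changed sign with that library. Its adjusted p in edgeR's quasi-likelihood test was 0.648 with all libraries and 0.707 without cKO library 1. Brown fat markers summed to 105 CPM in cKO library 1 and 33.1 to 47.4 CPM in the other cKO libraries. They summed to 67.4 CPM in WT library 1 and 29.8 to 57.6 CPM in the other WT libraries. Red blood cell genes summed to 76.8 CPM in cKO library 1 and 3.94 to 9.06 CPM in the other cKO libraries. They summed to 44.6 CPM in WT library 1 and 4.39 to 9.79 CPM in the other WT libraries. The part of these tissues in the counts of the muscle forms was not tested.

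**Figure D2:**
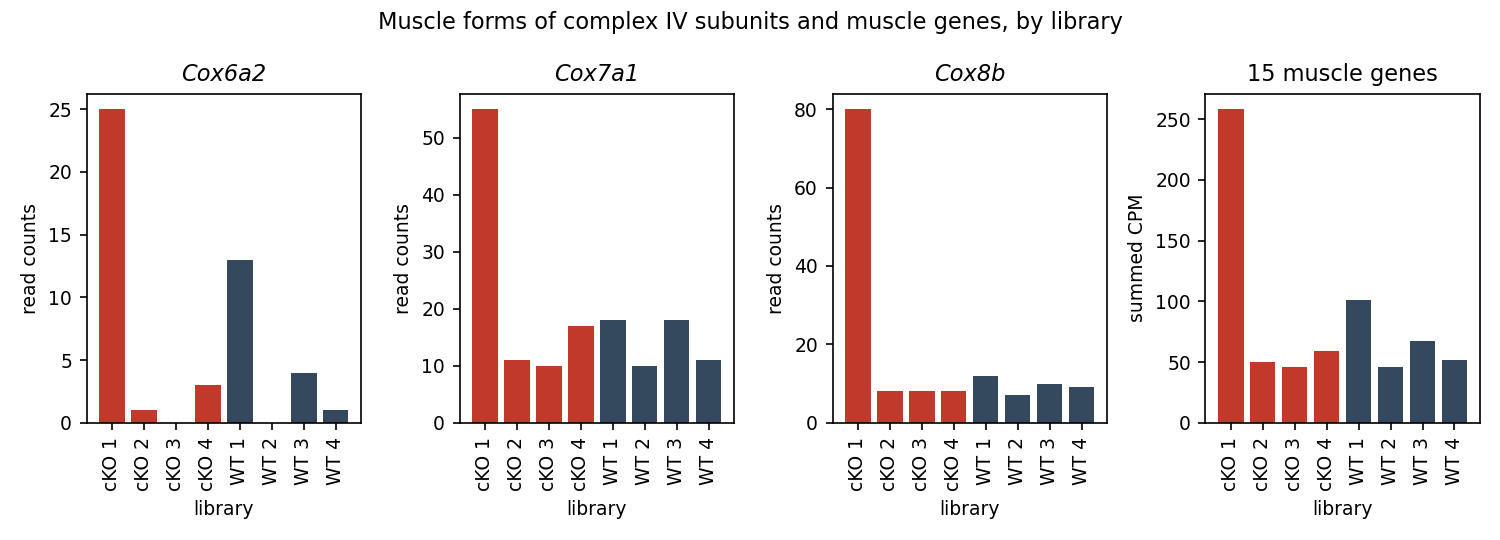
Read counts of the muscle forms Cox6a2, Cox7a1 and Cox8b, and the summed CPM of 15 muscle genes, in each of the 4 cKO (red) and 4 WT (dark) libraries; each bar is 1 library. In all 4 panels cKO library 1 is the highest, at 25, 55 and 80 counts and 258 CPM.

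ATP synthase, complex V, held the most abundant transcripts of the set. Its 14 tested genes had a median log2 fold change of -0.01, with 4 estimates above 0 and 10 below. The 5 genes of the F1 head, where ATP is made, had a median of -0.00 and a range from -0.01 to 0.04. Atp5b, the catalytic beta subunit, had 1037, 1351, 1189 and 1387 CPM in cKO libraries 1 to 4, against 1071, 1177, 1380.2 and 1342 CPM in WT libraries 1 to 4. The groups covered nearly the same range, and the 95% interval of the log2 fold change ran from -0.27 to 0.27. The alpha subunit gene Atp5a1 averaged 1104 ± 129 CPM in cKO and 1109 ± 98.9 CPM in WT ganglia (SD, n = 4 each), with an interval from -0.25 to 0.24. Atp5d, the delta subunit, and Atp5j, coupling factor 6 of the stalk, had the smallest p among those above 0, at 0.04 (SE 0.15) and 0.03 (SE 0.19).

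The 7 genes of the membrane part and the stalk had a median of -0.06 and a range from -0.11 to 0.03. Atp5j2, the membrane subunit f, had -0.11 (SE 0.20). Subunit c, which forms the rotating ring, is encoded by 3 nuclear genes whose mature proteins are the same. Atp5g3 supplied most of their counts, with 323, 539, 412 and 564 CPM in cKO libraries 1 to 4, against 349, 452, 619 and 507 CPM in WT libraries 1 to 4. Per kilobase it was the highest gene of the whole set in WT ganglia, at 644 ± 158 CPM per kb in cKO and 674 ± 158 CPM per kb in WT ganglia (SD, n = 4 each). Its log2 fold change was -0.07 (SE 0.20).

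Atp5g1, the second of these genes (chromosome 11, 96068852 to 96075670, minus strand, GRCm38), had 8.57, 14.7, 12.9 and 21.6 CPM in cKO libraries 1 to 4, against 9.75, 17.6, 25.3 and 15.99 CPM in WT libraries 1 to 4. Its log2 fold change of -0.25 (SE 0.31) was the lowest of the members, and its values spanned 2.52-fold among cKO and 2.60-fold among WT libraries. The estimate was -0.00 without WT library 3 and -0.51 without cKO library 4. The annotated transcript of Atp5g1 used for its length has 4715 bases, so its level of 3.07 CPM per kb in cKO and 3.64 CPM per kb in WT ganglia depends on that model.

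Some members share sequence with other annotated genes. The deposited table does not say how reads that match several places were counted. Of the 83 genes, 37 shared no stretch of 50 bases with another annotated transcript, and 6 shared at least 40% of such stretches. Of the 12 genes under 10 CPM per kb in WT ganglia, 7 shared none, 4 shared less than 40% and 1 shared more. The 7 were Cox6b2, Cox7a1, Cox7b2, Cox8b and Cox8c, paralogues used in other tissues, and Atp5s and Atp5sl, which encode no subunit. The other low genes, which all shared some, were Cox6a2, Ndufb4, Ndufs5, Atp5g1 and Atp5g2. Medians in WT ganglia were 30.8 CPM per kb for genes sharing at least 40%, 112.8 for those sharing less and 108.6 for none. Atp5g2, the remaining subunit c gene, shared 87.4% of its 50-base stretches and had 3, 6, 4 and 6 counts in cKO libraries 1 to 4, against 2, 2, 4 and 4 counts in WT libraries 1 to 4. Atp5l, membrane subunit g of ATP synthase, shared 84.8% and averaged 6.45 ± 1.47 CPM in cKO and 6.97 ± 1.69 CPM in WT ganglia (SD, n = 4 each). Cox7c, a complex IV subunit, shared 53.0% and averaged 5.67 ± 1.06 CPM in cKO and 6.29 ± 1.13 CPM in WT ganglia (SD, n = 4 each). Sharing did not go with a low level in every gene, since Atp5o, the stalk subunit OSCP, shared 50.3% and stood at 223 CPM per kb in cKO and 233 CPM per kb in WT ganglia. Ndufb4, the lowest tested gene of complex I, shared 37.0%, and its sharers included 3 pseudogenes. Ndufs5, an accessory subunit of complex I, shared 31.1% and had 0 counts in all cKO libraries and 0 or 1 count in WT libraries. Gapdh, a glycolytic enzyme outside the set whose shared sequence was not measured here, was listed at 1.48 CPM in cKO and 1.46 CPM in WT ganglia. The part of shared sequence in any of these values was not tested.

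The first 90 coding bases of both genes that shared most are shown with the closest stretch found in a processed pseudogene. That stretch was picked for having the fewest differences, so other copies can match less closely. Both stretches of each pair are given 5′ to 3′ on the sense strand, from GENCODE vM21 on GRCm38. No position differs within either pair.
Atp5g2 (chromosome 15): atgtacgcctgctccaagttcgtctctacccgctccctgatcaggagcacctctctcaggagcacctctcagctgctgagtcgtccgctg
Gm10175 (chromosome 7): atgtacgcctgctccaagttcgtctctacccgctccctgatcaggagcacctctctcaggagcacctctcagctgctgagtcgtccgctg
Atp5l (chromosome 9): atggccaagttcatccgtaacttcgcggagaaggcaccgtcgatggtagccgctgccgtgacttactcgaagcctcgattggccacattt
Gm10221 (chromosome 5): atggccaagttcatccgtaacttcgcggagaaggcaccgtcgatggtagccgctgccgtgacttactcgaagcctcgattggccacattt

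Both genes taken in by symbol alone were uncalled as well. Atp5s, known as factor B, gave an estimate of -0.21 (SE 0.20), with 11.6 ± 2.82 CPM in cKO and 13.5 ± 2.70 CPM in WT ganglia (SD, n = 4 each). Atp5sl, known as an assembly protein of the distal membrane arm of complex I, had -0.03 (SE 0.12).

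The members varied far more between libraries of a group than between groups, and they did so together. Their counts made up 0.859%, 1.25%, 0.989% and 1.303% of all counts in cKO libraries 1 to 4, against 0.869%, 1.02%, 1.32% and 1.13% in WT libraries 1 to 4. The means were 1.10 ± 0.210% in cKO and 1.08 ± 0.189% in WT ganglia (SD, n = 4 each). Each group held a library low in respiratory chain transcripts and a library about 1.5 times richer in them.

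Taken gene by gene, cKO library 4 was the highest of its group in 64 of the 77 genes and cKO library 1 the lowest in 73, while WT library 3 was the highest of its group in 70 and WT library 1 the lowest in 67. Over all tested genes these libraries were highest or lowest in 25.04%, 33.998%, 28.9% and 34.7% of genes. The ratio of the highest to the lowest library had a median over the members of 1.67 in cKO and 1.58 in WT ganglia, against 1.42 in cKO and 1.37 in WT ganglia over all tested genes. The absolute log2 fold change between groups had a median of 0.07 for members and 0.15 for all tested genes. It was smaller than the log2 range inside either group for 77 of 77 members and for 80.6% of all tested genes. A range over 4 libraries usually exceeds a difference of group means even without any effect, so this comparison is a description alone.

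**Figure D3:**
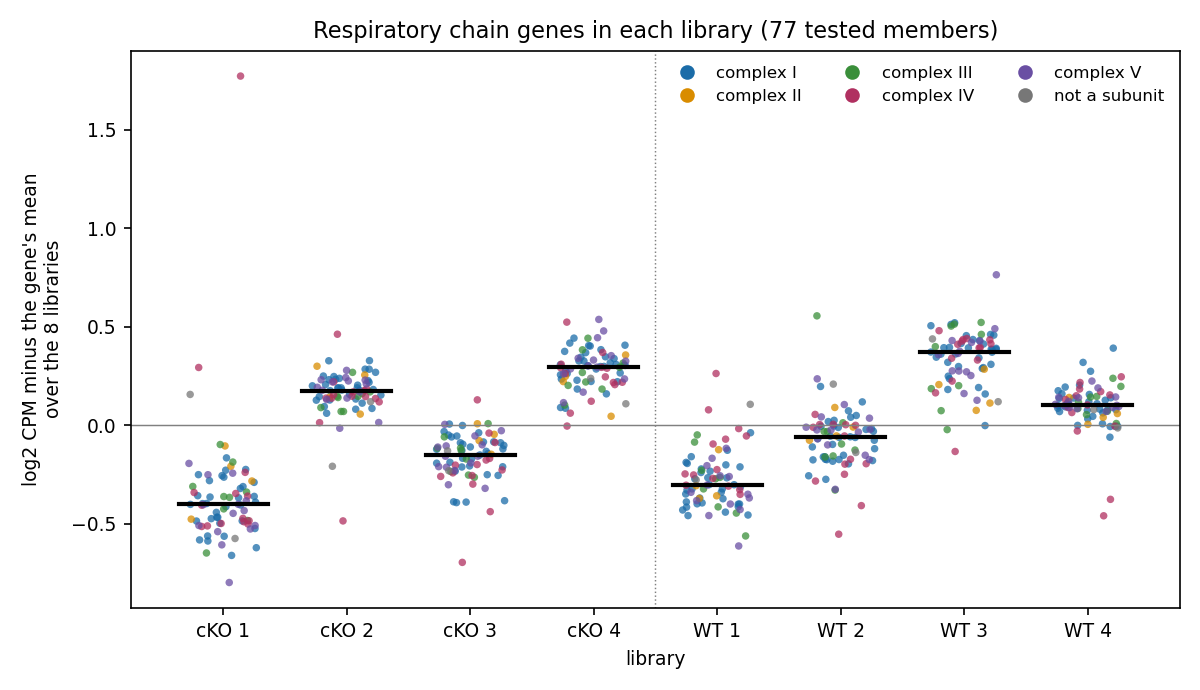
Log2 CPM of each of the 77 tested members minus that gene's mean over the 8 libraries, with points for genes coloured by complex and black bars for the library median. The medians are -0.40, 0.17, -0.15 and 0.29 in cKO libraries 1 to 4, against -0.30, -0.06, 0.37 and 0.10 in WT libraries 1 to 4, and genes of all complexes follow them.

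Every complex took part in this variation. The range of library medians, from the lowest library to the highest, was 0.78 on the log2 scale in complex I, 0.57 in complex II, 0.76 in complex III, 0.84 in complex IV and 0.80 in complex V. The 81 ribosomal protein genes, chosen after their values were seen, followed the same order of libraries inside each group over a smaller range. Their medians ran from -0.22 in cKO library 1 to 0.23 in cKO library 4, and from -0.23 in WT library 1 to 0.22 in WT library 3, a range of 0.46. Of the related lists described below, carriers and partners followed this order over a range of 0.61, citric acid cycle genes over 0.44 and glycolytic genes over 0.36. Assembly factors ranged over 0.45 with library 1 lowest in both groups but another order among the rest. Regulators of mitochondrial amount and genes of mitochondrial transport did not follow the order. Glia markers did not follow it either, with medians of 0.37, 0.22, 0.31 and 0.31 in cKO libraries 1 to 4, against -0.07, -0.45, -0.27 and -0.45 in WT libraries 1 to 4.

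Transcript length moved with the same libraries. Over all tested genes with transcripts under 800 bases (501 genes), the medians ranged over 0.53 on the log2 scale, over 0.41 from 800 to under 1500 bases (1745 genes) and over 0.15 from 1500 to under 3000 bases (4982 genes). From 3000 bases upward (7240 genes) they ranged over 0.20 in the opposite direction, at 0.10 in cKO library 1 and -0.09 in cKO library 4, and at 0.11 in WT library 1 and -0.09 in WT library 3. Of the members, 35 had transcripts under 800 bases, 22 from 800 to under 1500 and 17 from 1500 to under 3000.

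Within a length class the members still spread more than all tested genes. Among transcripts under 800 bases, WT library 3 exceeded WT library 1 by a median of 0.73 in members and 0.52 in all tested genes, and cKO library 4 exceeded cKO library 1 by 0.76 in members and 0.53 in all tested genes. From 1500 to under 3000 bases the excess of WT library 3 over WT library 1 was 0.39 in members and 0.10 in all tested genes, and that of cKO library 4 over cKO library 1 was 0.44 in members and 0.16 in all tested genes. The median log2 fold change between groups was -0.07, -0.01 and -0.01 in the 3 length classes of members. The causes of the variation between libraries were not tested.

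**Figure D4:**
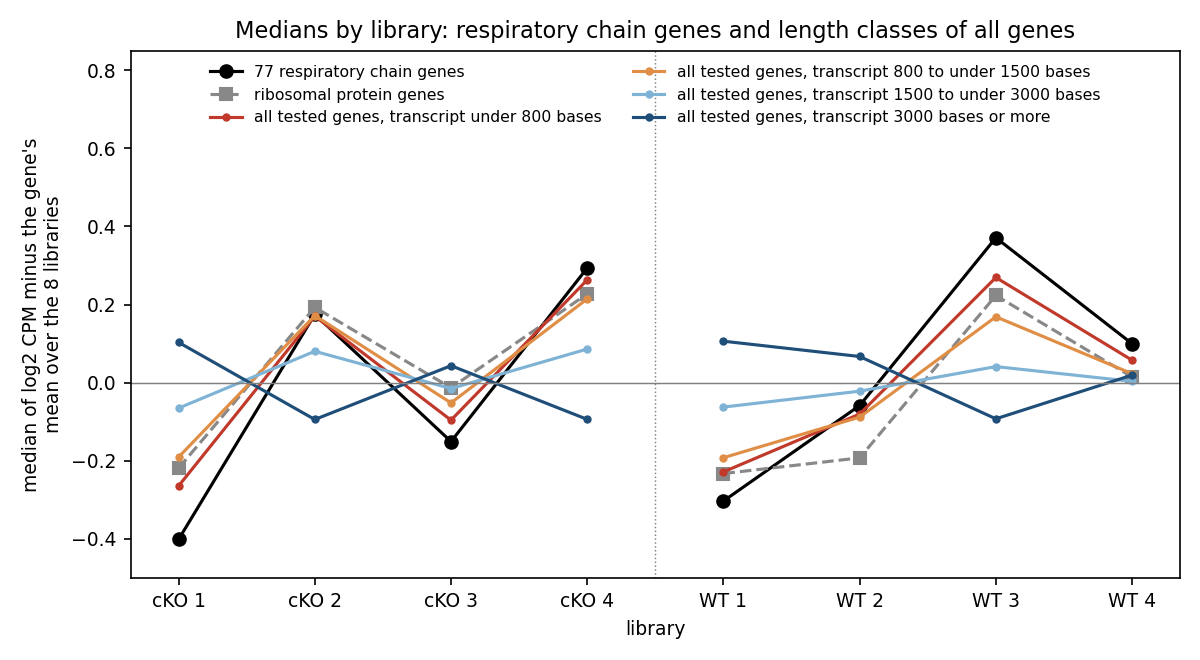
Median over genes of log2 CPM minus the gene's mean over the 8 libraries, by library, for the 77 respiratory chain genes, 81 ribosomal protein genes and all tested genes in 4 classes of transcript length. Respiratory chain genes range from -0.40 to 0.37, genes with transcripts under 800 bases follow the same order, and genes with transcripts of 3000 bases or more run the other way.

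Because the low and high libraries fell in both groups, the median of the members depended on which library was left out. It ran from -0.14 without WT library 1 to 0.07 without WT library 3, and the number of members called was 0 in each case.

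Markers of other cell types moved with genotype. Those of glia (median log2 fold change 0.61, 4 of 12 tested higher, Mbp and Art3 among them), of blood vessels (0.55, 5 of 14 higher, Pecam1 and Pdgfrb among them) and of fibroblasts and matrix (0.66, 6 of 10 higher, Ogn and Pdgfra among them) stood higher in cKO ganglia. Summed noradrenergic neuron markers ran from 25358 to 28882 CPM in cKO libraries, against 30109 to 32537 CPM in WT libraries. Their median log2 fold change was -0.16, with 4 of 20 estimates above 0 and 16 below. The 2 called lower were the neurofilament genes Nefl at -0.56 (SE 0.10) and Nefm at -0.51 (SE 0.11), and 0 of 20 were called higher. Macrophage markers had a median of 0.14 with 0 of 11 called, and of 8 dividing cell markers Mcm7, a replication helicase subunit, was higher. Over all tested genes 1.60% were called higher and 1.12% lower in cKO ganglia. The defining neuron markers of the labelled tissue were well measured, with Th at 1233 CPM in cKO and 1344 CPM in WT ganglia and Dbh at 2117 CPM in cKO and 2421 CPM in WT ganglia on average. Leaving out 1 library moved these counts to between 0 and 7 for glia, 0 and 7 for vessels, 2 and 6 for fibroblasts and 0 and 2 for neurons. Without WT library 4 they were 0, 0, 2 and 0 and Mcm7 was not called, without WT library 2 they were 1, 0, 2 and 0, and without cKO library 3 they were 1, 0, 6 and 0. The part of these cells in the values of the respiratory chain genes was not tested.

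Ndufa4l2 and Cox4i2, paralogues of Ndufa4 and Cox4i1 known to be induced in low oxygen and to be expressed in pericytes, were outside the chosen set, and each was higher in cKO ganglia with no overlap of the groups. Ndufa4l2 had 24.9 to 58.3 CPM in cKO and 15.1 to 18.4 CPM in WT libraries (log2 fold change 1.24, SE 0.22, adjusted p = 0.0182 in edgeR's quasi-likelihood test) and Cox4i2 had 4.57 to 8.18 CPM in cKO and 2.07 to 2.52 CPM in WT libraries (1.38, SE 0.22, adjusted p = 0.0114), and both calls were lost without WT library 2 or without WT library 4.

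Genes that work with the chain were uncalled as well. Of 11 carriers and partners, among them cytochrome c and the ADP/ATP translocases, 0 were called and the median log2 fold change was -0.05. The smallest p belonged to Ndufab1, the mitochondrial acyl carrier protein, at 0.33 (SE 0.23), and to Ckmt1, mitochondrial creatine kinase, at -0.14 (SE 0.15). Of 36 assembly factors 0 were called, with a median of -0.08. Coa5 of complex IV assembly had -0.23 (SE 0.10) and Ttc19 of complex III assembly -0.18 (SE 0.09). Of 21 genes of the citric acid cycle and pyruvate dehydrogenase 0 were called, with a median of -0.05. Idh2, mitochondrial isocitrate dehydrogenase, had 0.27 (SE 0.10) and Dlat, a subunit of pyruvate dehydrogenase, -0.25 (SE 0.10).

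Regulators that set the amount of mitochondria were likewise uncalled. Of 17 such genes, among them Ppargc1a, Nrf1, Gabpa and Tfam, 0 passed, and their median was 0.08. Esrrg, a nuclear receptor that drives oxidative genes, had -0.45 (SE 0.21) and Polg2, an accessory subunit of the mitochondrial DNA polymerase, 0.32 (SE 0.15). Of 16 genes of mitochondrial transport and dynamics 0 passed, with a median of -0.17 and 15 estimates below 0. Kif5a, a neuronal kinesin heavy chain, had -0.39 (SE 0.14), and Snph, syntaphilin, which anchors axonal mitochondria, had -0.39 (SE 0.14). Of these 16 genes 5 had an unadjusted p below 0.05, against 16.8% of all tested genes.

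Glycolysis was the only one of these 6 lists with calls. Of its 21 tested genes 2 were lower and 0 higher in cKO ganglia, against 1.12% lower and 1.60% higher over all tested genes. In the list 17 estimates lay below 0, against 7309 of all 14592, and the median was -0.22. Slc2a3, the neuronal glucose transporter GLUT3, had 547, 541, 577 and 549 CPM in cKO libraries 1 to 4, against 743, 798, 719 and 774 CPM in WT libraries 1 to 4. In log2 terms it fell by 0.45 in cKO ganglia (SE 0.08, adjusted p = 0.0190 in edgeR's quasi-likelihood test), and the groups were well apart. Aldoc, aldolase C, had 57.3, 64.8, 65.0 and 93.1 CPM in cKO libraries 1 to 4, against 102, 127, 183 and 141 CPM in WT libraries 1 to 4. It fell by 0.98 (SE 0.20, adjusted p = 0.0285 in the same test). Slc2a3 was no longer called without cKO library 2 or 3 or WT library 2 or 4, and Aldoc without any of these or without cKO library 1 or WT library 3, with all estimates still below 0. The difference between the glycolytic and the respiratory chain genes was not tested.

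**Figure D5:**
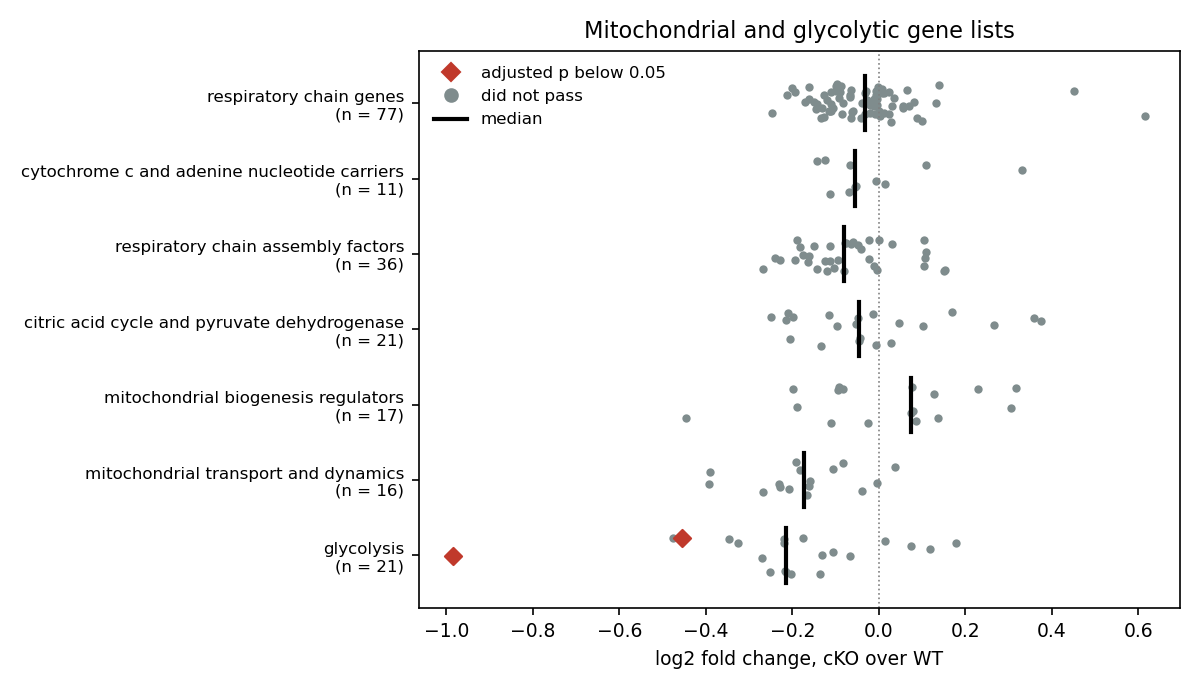
Log2 fold change, cKO over WT, of every tested gene in the respiratory chain set and 6 related lists, with a black bar at each median; red diamonds are genes with adjusted p below 0.05. The only diamonds are Slc2a3 and Aldoc, both lower in cKO ganglia.

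Some promoter motifs, which the choice by symbol did not use, were more frequent in the members than in all genes. RefSeq promoter stretches on GRCm38.p6, from 250 bases before to 50 after the start, were matched for 69 of the 83 genes and searched on both strands, next to those of 27025 genes. These 27025 genes were not limited to genes tested in these ganglia. Whether other genes expressed here hold the motifs as often as the members was not tested. The NRF1 motif, GCGCA and GCGC with any 1 base between them, was in 24.6% of member promoters and 5.19% of all. The ETS motif CCGGAAG, which GABPA binds, was in 23.2% of member promoters and 9.93% of all. The YY1 motif AAGATGGCG was in 11.6% of member promoters and 1.64% of all. At least 1 of these 3 was in 35 member promoters (50.7%), against 15.1% of all. The ERR core AAGGTCA was in 11.6% of member promoters and 5.38% of all, the SP1 motif GGGGCGGGG in 17.4% of member promoters and 12.9% of all, and the letters TATAAA in 10.1% of member promoters and 15.7% of all. A match is a description of these letters and no evidence of binding.

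The 4 promoter stretches below hold 2 of the NRF1, ETS and YY1 motifs each within 120 bases before and 30 bases after the start. They are shown because no other matched member stretch did so. Their genes cover 3 of the complexes, and none of them passed the test, as no member did. Capitals mark these 3 motifs on either strand, so that an ETS motif on the other strand reads CTTCCGG, and no motifs overlap in these stretches.
Atp5j (complex V, chr16:84834947-84835096, minus strand; YY1 and ETS): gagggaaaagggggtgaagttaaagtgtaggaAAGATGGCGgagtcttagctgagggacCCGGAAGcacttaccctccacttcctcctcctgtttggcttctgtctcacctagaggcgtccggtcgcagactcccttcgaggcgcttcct
Atp5k (complex V, chr5:108434370-108434519, minus strand; NRF1 and ETS): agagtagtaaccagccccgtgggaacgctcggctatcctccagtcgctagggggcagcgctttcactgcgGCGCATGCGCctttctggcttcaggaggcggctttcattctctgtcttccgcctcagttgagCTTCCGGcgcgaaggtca
Cox6a1 (complex IV, chr5:115348929-115349078, minus strand; NRF1 and ETS): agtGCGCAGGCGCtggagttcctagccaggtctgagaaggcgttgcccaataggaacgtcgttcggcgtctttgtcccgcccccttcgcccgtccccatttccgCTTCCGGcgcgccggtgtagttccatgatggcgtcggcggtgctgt
Sdhd (complex II, chr9:50603820-50603969, minus strand; NRF1 and ETS): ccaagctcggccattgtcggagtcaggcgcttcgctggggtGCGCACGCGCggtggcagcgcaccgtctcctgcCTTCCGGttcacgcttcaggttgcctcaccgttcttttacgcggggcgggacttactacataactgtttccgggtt
The log2 fold changes of these 4 genes were 0.03 (SE 0.19) for Atp5j, -0.10 (SE 0.23) for Atp5k, -0.13 (SE 0.17) for Cox6a1 and 0.06 (SE 0.15) for Sdhd. The factors themselves did not pass the test, with Nrf1 at 0.09 (SE 0.10), Gabpa at 0.14 (SE 0.11) and Yy1 at -0.09 (SE 0.11).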

How the data were processed

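Whole-number read counts per gene symbol were analysed as deposited. The authors aligned reads to mm10 with STAR, per the submitters' processing notes, from libraries of polyadenylated RNA made with a Truseq v2 kit, per the labels' protocols. STAR's version, the program that counted, its annotation, its use of strand and its handling of reads with several matches were not given in the sources used here. Of the members, 19 overlap another tested gene, and such counts are uncertain.

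The test was the robust quasi-likelihood test of edgeR 4.0.16 (R 4.3.3) on genotype alone, after filterByExpr and with TMM factors, with Benjamini-Hochberg adjustment over all 14592 tested rows and a threshold of 0.05. Standard errors were taken from the size of the log2 fold change and its F statistic, intervals are 95%, and a prior count of 2 was added for log2 CPM. Log2 fold changes are cKO over WT. The steps were run on simulated counts, drawn gene by gene without the variation between libraries that genes share here. That run therefore does not test how the fit handles such variation. Chi-square values showed larger differences between replicates than counting noise gives, and each library came from a separate animal.

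Coordinates and lengths (principal transcript) come from GENCODE vM21 on GRCm38, to which 98.0% of 23351 names and all 83 members were matched, and promoters from RefSeq. No annotated protein sequences were used.

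Members, lists and named genes were chosen with earlier results of these data known. Named genes are Kif1b, in each complex the 2 tested members with the smallest p in each direction and the highest and lowest per kilobase, the paralogues of complex IV and subunit c, the members that are no subunit, and of each list up to 3 called genes or the 2 with the smallest p. Gapdh, Uqcrc2's neighbours, Ndufs1, Atp5b, Atp5a1, the genes with shared sequence or printed promoters, the regulators named beside them and the ribosomal protein genes were chosen after their values were seen. Alternatives were 2 scalings, 2 filters, DESeq2 1.42.0, limma 3.58.1 voom, the number in the sample title as a block, and libraries left out. Some genes are not reported here by name, though counts include them. Figures were drawn with matplotlib 3.10.9.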

Additional observations from a re-analysis of the deposited data

Results flagged for a closer look

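Of 154 groups of 4 libraries checked, 2 held a library whose gap to the others exceeded Dixon's 95% limit, where chance flags about 1 in 20. Cox7a1 had 3.14 CPM in cKO library 1 and 0.568 to 0.917 CPM in the other cKO libraries, and muscle genes were highest in the same library. Cox7c had 7.96 CPM in WT library 3 and 5.52 to 5.89 CPM in the other WT libraries, and WT library 3 was the highest of its group in 70 of 77 members.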

How the results depend on the processing

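The number of respiratory chain genes called was 0 in the reported fit and in each of 16 alternatives, and the smallest adjusted p of a member over them was 0.167 (Cox6b2, edgeR's quasi-likelihood test without cKO library 3). The median log2 fold change of members moved with the scaling to 0.02 with library size alone, which also moved the median of all tested genes to 0.05, and with the library left out from -0.14 to 0.07. Of 77 tested members, 16 kept 1 sign in all settings and 74 stayed within 0.5 of 0 on the log2 scale.

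The number of all genes called was 397, against 1012 with the Wald test of DESeq2 and 74 to 514 with 1 library left out. The count was 312 without cKO library 1, 147 without cKO library 2, 137 without cKO library 3, 329 without cKO library 4, 514 without WT library 1, 79 without WT library 2, 249 without WT library 3 and 74 without WT library 4. With the number in the sample title as a replicate block the count was 687 for all genes and 0 for members. The labels state no pairing by number. The deviations of same-numbered libraries correlated at 0.72, 0.35, -0.30 and 0.27 over genes, and not every library correlated best with its own number. The value of 0.72, for cKO library 1 with WT library 1, was the largest of any cKO and WT pair. Whether same-numbered libraries were handled together was not tested. The 6 related lists held 2 called genes, 4 with DESeq2 and 0 to 3 with 1 library left out (1 without cKO library 1 or WT library 3, and 0 without cKO library 2, cKO library 3, WT library 2 or WT library 4). The cause was not tested. No named gene past the threshold changed sign in any of these. The 4 animals in each group limit what could be detected, and the depth of 16214912 to 18114418 counts leaves the muscle and testis forms resting on few counts.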
